A study of Homo sapiens with 4 samples.

Results

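The 10 circadian clock genes examined here were the activators CLOCK and ARNTL (BMAL1), the repressors PER1, PER2, PER3, CRY1 and CRY2, the REV-ERB receptors NR1D1 and NR1D2, and the output factor DBP. They were listed by name as core clock genes and are 10 of the 23228 gene symbols counted. NR1D2 was taken from a gene list that the study showed for these same libraries. The RNA came from ES2, a human ovarian cancer cell line grown in RPMI with serum and treated for 12 h with vehicle (0.1% DMSO) or 10 nM EC359. EC359 is a small molecule inhibitor of LIFR, the receptor of the cytokine LIF. Each treatment had 2 libraries, described by the study as biologically independent samples. The comparison covers 1 line, 1 dose and 1 time, and the sources used here name no step that synchronizes the cells.

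The circadian clock is a transcription loop that most cells run. CLOCK pairs with the ARNTL protein and binds E-boxes in the promoters of the PER, CRY, REV-ERB and DBP genes. PER and CRY proteins return to the nucleus and repress that pair, which closes the loop. In a further arm, NR1D1 and NR1D2 repress ARNTL through ROR elements (ROREs), which the ROR receptors activate, and DBP acts on D-boxes. In cultured cells that were not synchronized, individual cells can stand at different phases, so that a bulk library averages over them.

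Fitted changes of the clock genes with EC359 were small, apart from that of the barely detected DBP. None of the 10 passed an adjusted p under 0.01 in the quasi-likelihood test of edgeR (Benjamini-Hochberg adjustment), where 1.09% of the 12706 genes tested passed, and none passed 0.05, where 4.32% did. DESeq2 also called 0 of the 10, where it called 204 of all 12706 genes tested. NR1D2 had the lowest p and was 1.15-fold higher with EC359, and it alone lay under an unadjusted 0.05. That is 1 of 10 higher, where 10.7% of all genes tested were, and 0 of 10 lower, where 11% were. The median log2 fold change of the 10 was 0.10, with 7 higher and 3 lower, beside a median of 0.0029 and 50.97% higher over all genes. The 7 include NR1D2, taken from a gene list shown for these same libraries. They also include DBP, which passed the filter on low counts only through the EC359 libraries. The direction of NR1D2 and DBP is not independent evidence. Of the other clock network genes tested, the repressor CIART, listed under its older symbol C1orf51, had the lowest p. It was lower with EC359 (log2 fold change -0.45, adjusted p = 0.011) and did not pass 0.01 in edgeR's test, while DESeq2 gave an adjusted p of 0.0097.

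Reads counted on genes ran from 25572494 to 31707553 per library, and replicates differed by a biological coefficient of variation of 3.50%. Levels below are normalized counts, which are counts scaled to the mean library size. The keratins KRT18 and KRT8 were at 7239 and 647 normalized counts in vehicle, and the mesenchymal gene VIM at 154350. With EC359, KRT18 and KRT8 were at 7707 and 675, and VIM was lower at 137280 (log2 fold change -0.17, adjusted p = 0.014). CDH2, the other mesenchymal gene listed, went the other way, from 4121 in vehicle to 4223 with EC359 (log2 fold change 0.035, adjusted p = 0.63). The markers KRT19, PAX8 and WT1 were at 9.45, 29.5 and 100.7 in vehicle and 13.8, 36.8 and 107.7 with EC359 (adjusted p = 0.68, 0.51 and 0.80). The part of the VIM difference in the clock gene results was not tested. Counts of the epithelial genes EPCAM and CDH1 were at most 2 per library, MUC16 was at 0 in all 4 libraries, and the leukocyte gene PTPRC and endothelial gene PECAM1 had at most 2 counts. LIFR itself was at 1500.2 in vehicle and 1566 with EC359 (log2 fold change 0.062, adjusted p = 0.55). In bulk RNA, fewer cells that express a gene and less RNA per cell cannot be told apart.

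**Figure D1:**
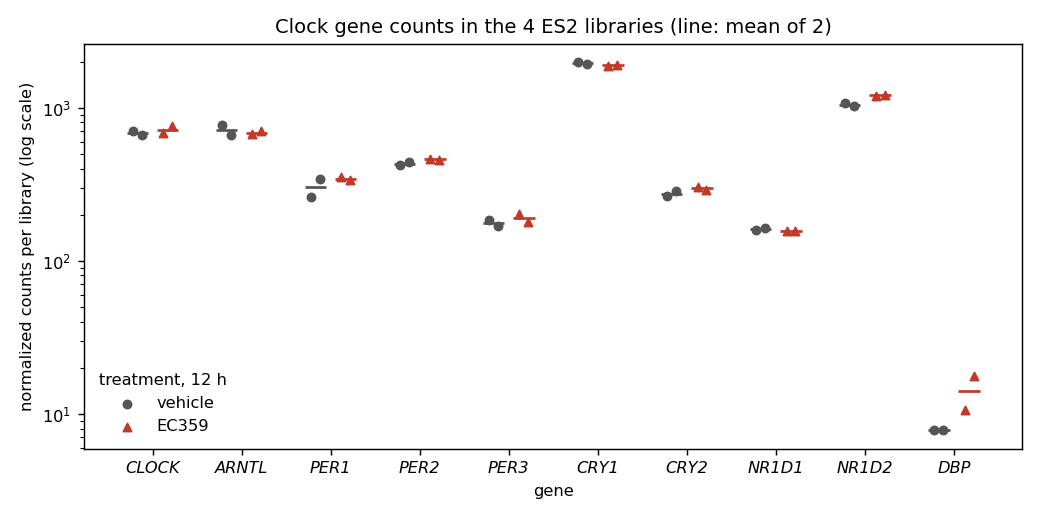
Normalized counts of the 10 clock genes on a log scale, with 1 point per library (circles vehicle, triangles EC359) and a line at the mean of the 2 libraries. CRY1 and NR1D2 are the highest by count and DBP the lowest. The triangles of NR1D2, PER2, CRY2 and DBP lie above both of their circles, and those of NR1D1 and CRY1 below both.

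For both activators the treatments overlapped. CLOCK (GRCh37 chr4:56294070-56413076) encodes a PAS domain factor and had 699 and 665 normalized counts in the vehicle libraries and 684 and 754 with EC359. The EC359 libraries held both the highest value and one inside the vehicle range, with a log2 fold change of 0.075 (95% interval -0.091 to 0.24, adjusted p = 0.61). TMEM165, on the opposite strand, shares 76 exonic bases with CLOCK (0.659%) and was at a log2 fold change of -0.048 (adjusted p = 0.64). ARNTL (chr11:13298199-13408813), the obligate partner of CLOCK, stood at 768 and 665 in vehicle and at 669.5 and 701 with EC359. Both EC359 values lay between the vehicle values, and the log2 fold change was -0.065 (-0.24 to 0.11, adjusted p = 0.69). Leaving out vehicle replicate 1, the higher of them, turned it to 0.043.

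The REV-ERB receptors act on ARNTL through ROREs, and both sites near its start match the letters AGTAGGTNA. These letters are narrower than ROREs in general and match both ARNTL sites, so that no other member holding them says little. Windows from 250 bases before to 50 after each RefSeq start (GRCh38.p14) were searched on both strands, and all 10 members had at least 1 window, 15 in all. They were in 0.436% of all 35116 windows. In ARNTL the letters began 8 bases before and 29 bases after the start at its second window, at chr11:13277772-13277800 and chr11:13277808-13277836 on the plus strand. Both sites are shown because they tie NR1D1 and NR1D2 to ARNTL in the loop, with the motif in capitals and 10 bases on each side.
ARNTL first RORE: ttggtcggaaAGTAGGTTAgtggtgcgac
ARNTL second RORE: gaaggcagaaAGTAGGTCAgggacggagg

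Of the PER genes, whose proteins repress CLOCK and its partner, none passed the test. PER1 (chr17:8043790-8059824), which also responds quickly to outside signals such as glucocorticoids, had 259 and 343 normalized counts in vehicle and 353 and 334 with EC359. Vehicle replicate 1 stood below the other 3 libraries, which lay close together. The PER1 log2 fold change of 0.19 (-0.083 to 0.47, adjusted p = 0.41) rested on that library, since it was 0.0050 without vehicle replicate 1 and 0.40 without vehicle replicate 2 (adjusted p = 0.99 and 0.033). PER2 (chr2:239152685-239198743) had 419 and 441 in vehicle and 464 and 454 with EC359. The groups did not overlap, and EC359 was the higher by a log2 fold change of 0.095 (-0.081 to 0.27, adjusted p = 0.53). PER3 (chr1:7844351-7905237), the PER gene with the lowest level, overlapped between treatments at 184.5 and 168 against 202 and 178 (log2 fold change 0.11, -0.17 to 0.39, adjusted p = 0.66). PER3 shares 868 of its 8128 exonic bases (10.68%) with UTS2 on the opposite strand, which had 1 count in vehicle replicate 1 and 0 in the other libraries.

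The CRY genes, which encode the other repressors of the complex, had small fitted changes of opposite sign that did not pass the test. CRY1 (chr12:107385142-107487327) had 1975 and 1925 normalized counts in vehicle and 1878 and 1897 with EC359. Both EC359 values were lower, and the interval was the narrowest of the 10 members (log2 fold change -0.047, -0.15 to 0.057, adjusted p = 0.61). CRY2 (chr11:45868669-45904799) had 263 and 285 in vehicle and 305 and 289 with EC359. Both CRY2 values with EC359 were higher, the lower of them only just (log2 fold change 0.12, -0.10 to 0.34, adjusted p = 0.53).

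The REV-ERB pair are nuclear receptors that bind heme and repress transcription, and neither passed the test. NR1D2 (REV-ERB beta, chr3:23986777-24022108) had 1065 and 1024 normalized counts in vehicle and 1199 and 1204 with EC359. Its groups did not overlap, with means of 1044 ± 29.03 and 1201.5 ± 3.03 (SD, n = 2 each). The log2 fold change was 0.20 ± 0.057 (SE), with a 95% interval of 0.075 to 0.33 and an adjusted p of 0.075, so that NR1D2 did not pass 0.01 or 0.05. It ranked 890 of 12706 by p. The study showed NR1D2 among genes that induce ferroptosis in a heatmap of these same libraries, so its direction here is not independent evidence. NR1D1 (REV-ERB alpha, chr17:38249046-38256842) had 158 and 164 in vehicle and 156 and 157 with EC359. These EC359 values were just below the vehicle values (log2 fold change -0.040, -0.32 to 0.23, adjusted p = 0.89).

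**Figure D2:**
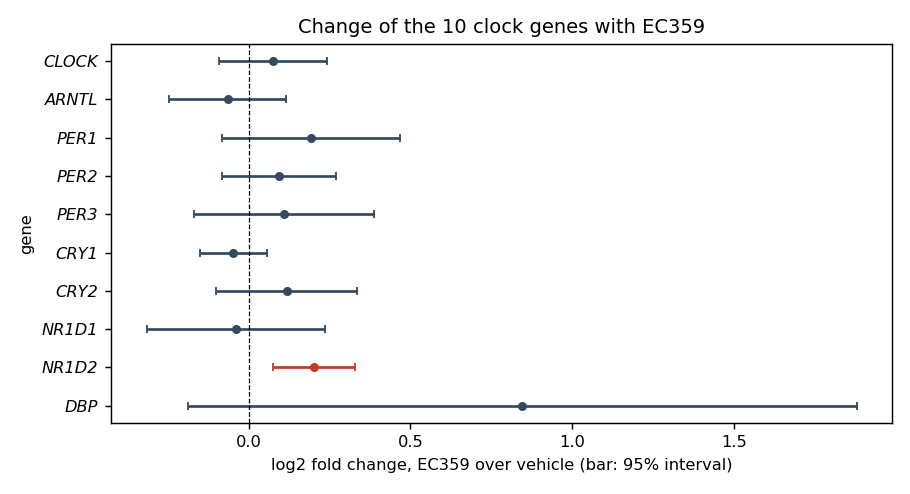
Log2 fold change of EC359 over vehicle for the 10 clock genes, with 95% intervals from edgeR's quasi-likelihood fit on 2 libraries per treatment. The NR1D2 interval, in red, is the only one that leaves out 0, and that of DBP is the widest, from -0.19 to 1.88.

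NR1D1 shares 473 of its 2630 exonic bases (17.98%) with THRA, a thyroid hormone receptor gene on the opposite strand. The library kit keeps strand, but the strand setting of the counting was not given in the sources used here, so the reads of the pair may not be separated. THRA had 255 and 238 normalized counts in vehicle and 207 and 217 with EC359 (log2 fold change -0.22, adjusted p = 0.27). NR1D2 shares no 50-base stretch with annotated transcripts of another gene.

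NR1D2 and PER1 were the members with the E-box letters CACGTG near a start, letters found in 7.26% of all windows. That share is per window, while the 10 members had 15 windows. E-boxes with other letters or outside these windows were not searched, so the remaining members are not shown to lack them. NR1D2 had them at 155 and 105 bases before its start and PER1 at 173 bases. The 250 bases before each start are printed because these E-boxes are where CLOCK and its partner can bind, with the letters in capitals. NR1D2 is at chr3:23945871-23946120 on the plus strand and PER1 at chr17:8152405-8152654 on the minus strand (GRCh38.p14).
NR1D2: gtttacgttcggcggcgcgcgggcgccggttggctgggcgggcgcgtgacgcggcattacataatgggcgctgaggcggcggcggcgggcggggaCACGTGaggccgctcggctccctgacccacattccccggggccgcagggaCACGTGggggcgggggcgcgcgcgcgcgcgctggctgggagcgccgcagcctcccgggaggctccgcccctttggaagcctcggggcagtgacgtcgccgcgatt
PER1: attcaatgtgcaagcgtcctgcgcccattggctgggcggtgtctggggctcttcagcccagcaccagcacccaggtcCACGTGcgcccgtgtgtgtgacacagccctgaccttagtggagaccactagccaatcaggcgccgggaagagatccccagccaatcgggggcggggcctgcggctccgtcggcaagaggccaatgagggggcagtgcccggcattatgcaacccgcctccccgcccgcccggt

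Other clock letters were spread over the members. The D-box letters TTANNTAA were in 5.63% of all windows and in ARNTL, NR1D2, PER2 and PER3. The CRE half-site TGACG, the core of sites for CREB, was in 24.6% of all windows and in CLOCK, CRY1, CRY2, NR1D2 and PER2. NR1D2 thus had 3 of the 4 motifs searched. A match describes letters only.

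DBP (chr19:49133287-49140636), a PAR bZIP factor that is a classic direct target of CLOCK and its partner, was barely detected. It had 7 counts in each vehicle library and 12 and 19 with EC359, or 7.78, 7.79, 10.6 and 17.7 normalized counts. Both EC359 libraries were higher, but DBP passed the filter on low counts only through them. The log2 fold change of 0.85 (-0.19 to 1.88, adjusted p = 0.33) had a counting error alone of 0.46 on the log2 scale. DBP also shares 661 of 6485 exonic bases (10.19%) with SPHK2 on the opposite strand, which had 335, 431, 359 and 429 normalized counts in the same order (log2 fold change 0.040, adjusted p = 0.90).

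Counted over the members, both EC359 libraries lay above both vehicle libraries in 4 of 10 (NR1D2, PER2, CRY2 and DBP), where 26.1% of all genes tested did. They lay below in 2 of 10 (NR1D1 and CRY1), where 25.4% did. The remaining 4 overlapped. Without DBP, 3 of 9 were above. Of those, NR1D2 came from a gene list shown for these same libraries and is not independent evidence, which leaves PER2 and CRY2.

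**Figure D3:**
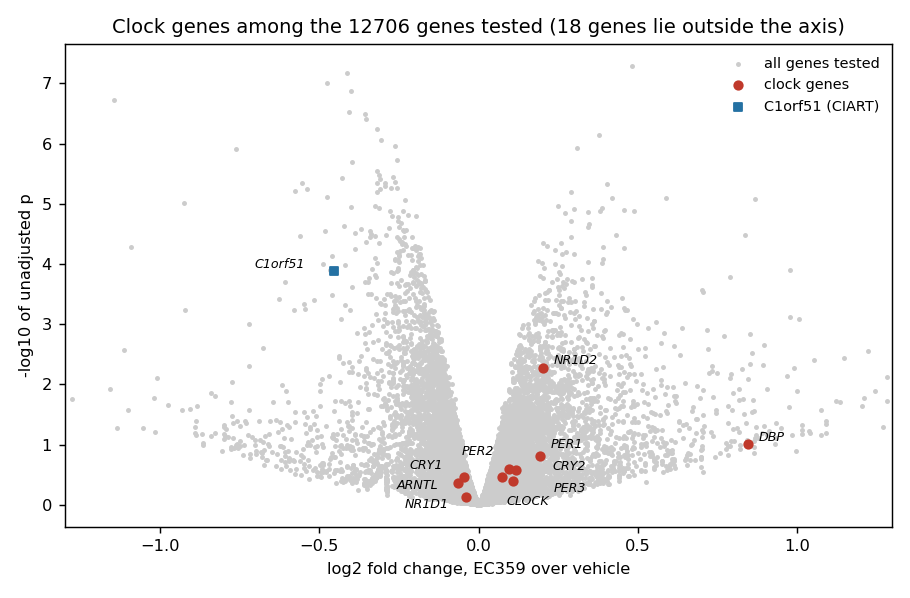
Unadjusted p on a -log10 scale against the log2 fold change for the 12706 genes tested, of which 18 lie beyond the axis limit of 1.3 on the log2 scale and are not drawn, with the 10 clock genes in red and C1orf51 as a blue square. Most clock genes sit in the dense base of the cloud, NR1D2 stands above them, and C1orf51 lies on the lower side at -0.45.

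Levels were compared between genes per kilobase of 1 annotated transcript each. In vehicle, CRY1 was highest at 653 normalized counts per kilobase, followed by ARNTL at 257 and NR1D2 at 199.6. PER2, CRY2, CLOCK, PER1 and NR1D1 followed between 61.1 and 67.4, closer to each other than the spread of PER1 between its libraries (64.3 ± 12.7). PER3 at 27.7 and DBP at 3.59 were the lowest, and with EC359 the first 3 and the last 2 stood in the same order. PER1 was 0.843 to 1.06 times PER2 over the 4 libraries. CRY1 was 8.51 to 10.4 times CRY2, and NR1D1 was 0.258 to 0.318 times NR1D2. NPAS2, a paralog of CLOCK that also pairs with the ARNTL protein, was 8.36 to 9.92 times CLOCK, and ARNTL2, the paralog of ARNTL, was 1.34 to 1.51 times ARNTL.

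Ratios within a library do not depend on scaling, and 9 were compared by an exact two-sided permutation test over the 4 libraries, whose smallest possible p is 0.333. The log2 ratio of NR1D2 to ARNTL, a repressor to its target, was 0.47 and 0.62 in vehicle and 0.84 and 0.78 with EC359. It was higher in both EC359 libraries, by 0.26 (exact permutation p = 0.333). The log2 ratio of NR1D1 to NR1D2 was -2.75 and -2.65 in vehicle and -2.95 and -2.94 with EC359, which also did not overlap (difference -0.24, exact permutation p = 0.333). NR1D2 came from a gene list that the study showed for these same libraries, so the direction of either ratio is not independent evidence. CRY1 to CRY2 was 2.91 and 2.76 in vehicle and 2.62 and 2.71 with EC359, lower in both (difference -0.16, exact permutation p = 0.333). CLOCK to ARNTL and DBP to NFIL3 also did not overlap, with differences of 0.14 and 0.75, the latter resting on a DBP that passed the filter only through the EC359 libraries. The ratios PER1 to PER2, PER3 to PER2, NPAS2 to CLOCK and ARNTL2 to ARNTL overlapped between treatments.

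Around the members, 36 other genes of the clock network were listed from general knowledge, and 34 had enough counts to test. None passed an adjusted p under 0.01 in edgeR's quasi-likelihood test, where 1.09% of all genes tested did. DESeq2 called 1 of the 34, where it called 204 of all 12706 genes tested. At an adjusted p under 0.05 there was 1 of 34, where 4.32% of all genes tested passed. At an unadjusted 0.05 there were 3 higher and 5 lower, where 10.7% and 11% of all genes were. The median log2 fold change was -0.052, with 11 higher and 23 lower. FBXL21 and USP2 had at most 2 counts in any library.

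Among other loop factors, CIART (C1orf51, chr1:150254953-150259505), a repressor of CLOCK and its partner, was the gene with an adjusted p under 0.05, and it was lower with EC359. It had 604 and 666 counts in vehicle and 591 and 545 with EC359 in the deeper libraries, which is 706 ± 49.3 and 516 ± 9.77 normalized counts (SD, n = 2 each). The groups did not overlap, and the log2 fold change was -0.45 ± 0.077 (SE; -0.62 to -0.28, adjusted p = 0.011). Whether it was called depended on the processing. Its adjusted p was under 0.01 in 6 of 11 settings on all 4 libraries, the reported fit counted among the 11. It was the network gene called with RLE factors, DESeq2 or the length trend removed (adjusted p = 0.0099, 0.0097 and 0.0084). Its log2 fold change was -0.52 and -0.39 without vehicle replicate 1 or 2, and -0.47 and -0.43 without EC359 replicate 1 or 2. Its promoter window had 3 E-boxes with the letters CACGTG, at 129, 71 and 57 bases before the start, more than the windows of any member. They are printed beside those of NR1D2 and PER1 for that reason, from chr1:150282304-150282553 on the plus strand (GRCh38.p14).
C1orf51: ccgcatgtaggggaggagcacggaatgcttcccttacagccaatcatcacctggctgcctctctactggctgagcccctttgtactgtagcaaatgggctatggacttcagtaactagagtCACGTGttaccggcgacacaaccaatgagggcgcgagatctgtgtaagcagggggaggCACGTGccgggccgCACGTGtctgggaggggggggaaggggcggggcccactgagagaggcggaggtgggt

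In the same list, 9 of 10 tested factors were lower, with a median log2 fold change of -0.096, beside 6230 of 12706 lower and a median of 0.0029 over all genes. In 7 of 10 both EC359 libraries lay below both vehicle libraries, where 25.4% of all genes did. ARNTL2 was at 2531 and 2355 mean normalized counts (log2 fold change -0.10, adjusted p = 0.21). BHLHE41 (DEC2), an E-box repressor, was at a log2 fold change of -0.11 (adjusted p = 0.36). NPAS2 and NFIL3, a repressor on D-boxes, were at -0.046 and 0.064 (adjusted p = 0.58 and 0.74).

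Of the 9 cofactors tested, 3 were lower and 2 higher at an unadjusted 0.05, where 11% and 10.7% of all genes tested were. These are 5 of the 8 network genes under that threshold. HDAC3, the deacetylase that the REV-ERB receptors recruit through NCOR1, was at 2717 mean normalized counts in vehicle and 2420.0 with EC359 (log2 fold change -0.17, adjusted p = 0.060). MLL (KMT2A), a histone methyltransferase that works with CLOCK, was at -0.13 (adjusted p = 0.094), and NONO, a partner of PER proteins, at -0.089 (adjusted p = 0.13). The others were on the higher side and were picked after their values were seen. They were TIMELESS at 0.13 (adjusted p = 0.13) and the deacetylase SIRT1 at 0.12 (adjusted p = 0.21).

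Among outputs, TSC22D3 (GILZ), which glucocorticoids also induce, had 136 and 179 normalized counts in vehicle and 222 and 209 with EC359. Its log2 fold change was 0.45 (adjusted p = 0.098). It was 0.27 without vehicle replicate 1, the library in which PER1 was also lowest, and 0.66 without vehicle replicate 2. The cause of the low values in that library was not tested. WEE1, a kinase that holds back mitosis, and KLF10 were at -0.12 and -0.053 (adjusted p = 0.39 and 0.57). The kinases, phosphatase and ubiquitin ligases that set the turnover of PER and CRY proteins had the smallest fitted changes, with all 9 tested between -0.070 and 0.068 on the log2 scale. The lowest p values in that list were those of CSNK2A1, PPP1CA and CSNK1D, at -0.070, -0.055 and 0.068 (adjusted p = 0.30, 0.43 and 0.47).

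**Figure D4:**
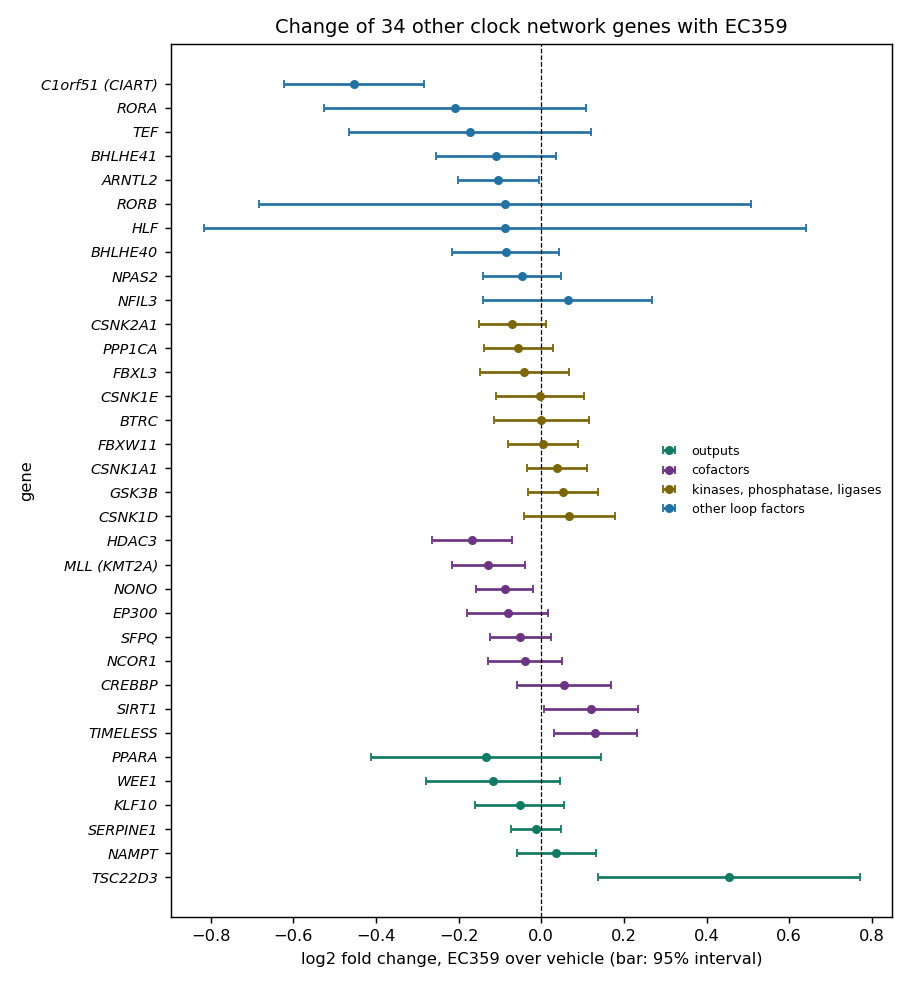
Log2 fold change of EC359 over vehicle with 95% intervals for the 34 clock network genes tested, grouped and coloured by list and ordered by change within a list. C1orf51 is the lowest at -0.45 and TSC22D3 the highest at 0.45, while the kinases, phosphatase and ligases stay within 0.070 of 0.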

How the data were processed

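RNA from ES2 cells was sequenced with a stranded polyadenylated RNA kit (50-base single-end reads), 2 libraries per treatment. The authors called bases with CASAVA 1.8.2, aligned reads to UCSC hg19 with TopHat2 2.0.8b and counted them per RefSeq gene with HTSeq, per the labels and the study's methods. What the authors deposited is a raw count for each gene symbol, with no normalization. Rows that name no gene were left out of library sizes: reads on no gene were 10.95% to 12.05% of uniquely aligned reads, and ambiguous reads 0.852% to 0.879%. Depth limits the precision of genes with few counts, such as DBP.

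Counts were filtered with filterByExpr (minimum count 10, total 15), given TMM factors, and compared by edgeR 4.0.16 in R 4.3.3 (quasi-likelihood, no replicate block, Benjamini-Hochberg over 12706 genes, called at an adjusted p under 0.01). The standard error is the log2 fold change over the square root of F. Replicates differed by more than sampling noise (chi-square per degree of freedom 3.81 in vehicle and 2.72 with EC359). Ratios were tested by exact permutation. Places, lengths and overlaps came from GENCODE lifted to GRCh37 (hg19), which matched 91.75% of symbols, and promoters from RefSeq on GRCh38.p14. ARNTL, ARNTL2, C1orf51, FBXL21 and MLL were matched through synonyms, FBXL21 to a gene annotated as a transcribed unitary pseudogene.

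The members, lists and tests were chosen with earlier results of these data known. Some genes of the network lists are not reported here and are in none of the lists' counts. Text names all members, the counted genes that overlap their exons, and up to 3 genes per network list with the lowest p. The test was checked on simulated counts. Alternatives were RLE factors, library totals, DESeq2 1.42.0, no filter, other thresholds, a replicate block, removal of GC and length trends, and leaving out each library.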

Additional observations from a re-analysis of the deposited data

How the results depend on the processing

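Among the 10 clock genes, over 10 alternatives on all 4 libraries, 97 of 100 values kept their direction and their side of the threshold, and the other 3 were NR1D2 passing it. The alternatives of an adjusted or an unadjusted p under 0.05 changed only the threshold of the same fit, so direction could not turn there. The count of clock genes called was 0, and became 1 (NR1D2) at an unadjusted 0.05, with the replicate block (log2 fold change 0.20, adjusted p = 0.0061) and with the GC trend removed together with the block (0.17, adjusted p = 0.0074). Over the other alternatives its adjusted p reached 0.30 with DESeq2. Leaving out any 1 library gave 0 clock genes called, and DBP was not tested without EC359 replicate 2. The replicate numbers are not said to mark a shared batch, and with 2 pairs and a correlation of deviations of 0.11 they were treated as names only, so a call gained or lost under the block is not a pairing result. Of the clock network genes, called were 0 in the reported fit, 1 with RLE factors, DESeq2, an adjusted p under 0.05 or the length trend removed, 8 at an unadjusted 0.05, 6 with the replicate block, 2 with the GC trend removed and 8 with both, and 0 to 2 when 1 library was left out. Over all genes tested, 139 were called (38 higher, 101 lower), and 120 (52 higher, 68 lower) with library totals only, 549 at an adjusted p under 0.05, 2750 at an unadjusted 0.05, 1539 with the replicate block, 1087 with the GC trend removed, 1965 with both, and 61 without the filter; leaving out 1 library gave 0 (EC359 replicate 1) to 539. Also over all genes tested, 145 were called with RLE factors, 204 with DESeq2 and 142 with the length trend removed. Direction turned without vehicle replicate 1 for ARNTL (0.043, range over libraries left out -0.17 to 0.043) and CSNK1D (-0.0039, range -0.0039 to 0.14), and for NFIL3 without vehicle replicate 2 (-0.046) or EC359 replicate 1 (-0.036), with a range of -0.046 to 0.18. The causes were not tested. Where 1 library is left out, the lone sample is assumed to vary like the others. The 95% intervals of the members ran from -0.15 to 0.057 for CRY1, the narrowest, up to -0.19 to 1.88 for DBP.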
